A study of Mus musculus with 2 samples.

Results

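Islet endocrine cells are usually sorted by the one hormone that dominates their RNA, and the cells described here carried large amounts of 2, glucagon and pancreatic polypeptide. They were chosen by a rule on the UMI counts (unique molecular identifiers, each standing for 1 captured RNA molecule): Gcg and Ppy each made up at least 1% of the UMIs of the cell, while Ins1 and Ins2 together, and Sst, each stayed under 1%. The rule selected 151 of 1483 cells, called Gcg+Ppy cells below, of which 65 of 735 lay in library 1 and 86 of 748 in library 2. They were compared with 356 Gcg-only cells (182 and 174 in libraries 1 and 2) and 122 Ppy-only cells (54 and 68), which met the threshold for 1 of the pair and for neither insulin nor somatostatin. A further 183 cells met no hormone threshold and the remaining 671 carried insulin or somatostatin.

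Both libraries were made by RevGel-seq, in which single cells, each paired with a barcoded bead, are held in a hydrogel that is later liquefied, so that no microfluidic instrument is needed. The islets, labelled as control, came from male C57BL/6J mouse pancreas at an age of 8 weeks, and the number of animals is not given. They were picked by hand and dissociated with trypsin-EDTA, and each library started from 10000 cells. The libraries are technical replicates of 1 islet preparation, so there is no second condition, and every SD, SE and p-value below measures the spread between libraries and not the spread between animals. The libraries held 15931154 and 17440292 UMIs, single cells held 4704 to 177513 UMIs, 33038 genes had a UMI in either library, and no barcode was shared between them.

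In the islet, alpha cells secrete glucagon, which raises blood glucose; gamma cells, also called PP cells, secrete pancreatic polypeptide, which acts on appetite and on the exocrine pancreas. Pancreatic polypeptide belongs to the same peptide family as peptide YY, and the genes for both lie side by side. Glucagon is cut from proglucagon by the convertase Pcsk2 in alpha cells, while the convertase Pcsk1 makes GLP-1 from the same precursor in gut cells. Polyhormonal cells are known from the developing pancreas and from stressed or reprogrammed adult islets.

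The promoters of the hormone genes that define the cells are shown first, because the choice of cells turns on Gcg and Ppy, and Pyy, the neighbour of Ppy, stood between the single-hormone classes. Each run is the 250 bases before the RefSeq start, written 5′ to 3′ on the strand of the gene (minus in all 3; build GRCm38.p6): chr2:62483654-62483903 for Gcg, chr11:102101320-102101569 for Ppy and chr11:102107833-102108082 for Pyy, the last being the nearer of 2 windows that the table holds for that gene. Capitals mark, on either strand, the letters ATTA, which are the core that many homeodomain factors read, the letters TGCTGA, which are one arm of the element that Maf factors read, and the letters TATAAA of a TATA box; none of the marked runs overlap.
Gcg: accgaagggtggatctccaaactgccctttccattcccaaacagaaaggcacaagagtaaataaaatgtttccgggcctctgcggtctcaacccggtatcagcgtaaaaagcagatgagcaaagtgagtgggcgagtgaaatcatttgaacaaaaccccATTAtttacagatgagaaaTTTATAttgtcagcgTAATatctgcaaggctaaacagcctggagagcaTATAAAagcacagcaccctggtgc
Ppy: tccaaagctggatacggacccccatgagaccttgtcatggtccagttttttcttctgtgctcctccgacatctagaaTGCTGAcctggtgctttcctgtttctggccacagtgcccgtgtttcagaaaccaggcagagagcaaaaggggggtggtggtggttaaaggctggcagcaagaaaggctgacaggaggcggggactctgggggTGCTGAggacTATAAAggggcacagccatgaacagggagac
Pyy: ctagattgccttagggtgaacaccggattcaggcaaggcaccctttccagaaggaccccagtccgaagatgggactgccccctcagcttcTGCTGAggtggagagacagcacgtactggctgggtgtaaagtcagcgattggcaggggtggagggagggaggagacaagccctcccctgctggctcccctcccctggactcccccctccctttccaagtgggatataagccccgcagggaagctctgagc

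The Gcg window held the homeodomain core at positions -91 and -57 and the TATA letters at -72 and -24, and held no match to the Maf letters. The Ppy window held the Maf letters at -173 and -41 and the TATA letters at -31, and the Pyy window held the Maf letters at -160. Of 32851 mouse promoter windows of RefSeq, 54.9% held the homeodomain core on either strand, 16.1% the Maf letters and 12.4% the TATA letters. The homeodomain core is thus common and the others less so, and a match in 1 window describes its letters only. Ppy (chromosome 11, 102099930 to 102101319) and Pyy (chromosome 11, 102106676 to 102107832) lie 5356 bases apart with 0 annotated genes between them in GRCm38 (annotation GENCODE M21), both on the minus strand, and Gcg lies on chromosome 2, 62474530 to 62483650.

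The share of Gcg+Ppy cells was 8.84% in library 1, with an exact 95% interval from 6.89 to 11.1%. In library 2 it was 11.5%, with an interval from 9.30 to 14.0%, and the mean was 10.2% ± 1.88 (SD, n = 2 libraries); intervals cover counting error only. They were thus a large part of both hormone populations: 29.8% of the 507 cells with Gcg and 55.3% of the 273 cells with Ppy. In library 1 the shares were 26.3% and 54.6%, and in library 2 33.1% and 55.8%. At the 1% threshold, most Ppy cells in both libraries thus also carried Gcg, while most Gcg cells did not carry Ppy. Thresholds of 0.5, 2 and 5% gave 180, 108 and 51 Gcg+Ppy cells beside 117, 131 and 151 Ppy-only cells. At 2 and 5% the Gcg+Ppy cells were thus no longer the majority of Ppy cells. All of these values follow from the rule and were not tested.

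The hormone levels themselves were as follows. Gcg took a median of 20.5% of UMIs in the Gcg+Ppy cells of library 1 (lowest 1.38%, highest 38.1%) and 17.9% in library 2 (1.19 to 34.1%), against medians of 23.8 and 24.6% in Gcg-only cells. Ppy took a median of 3.85% in library 1 (1.00 to 34.3%) and 3.95% in library 2 (1.00 to 35.6%), against 36.3 and 36.5% in Ppy-only cells. The median Gcg share was therefore somewhat lower than in Gcg-only cells, more so in library 2. The median Ppy share was a small part of that in Ppy-only cells, in both libraries.

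**Figure D1:**
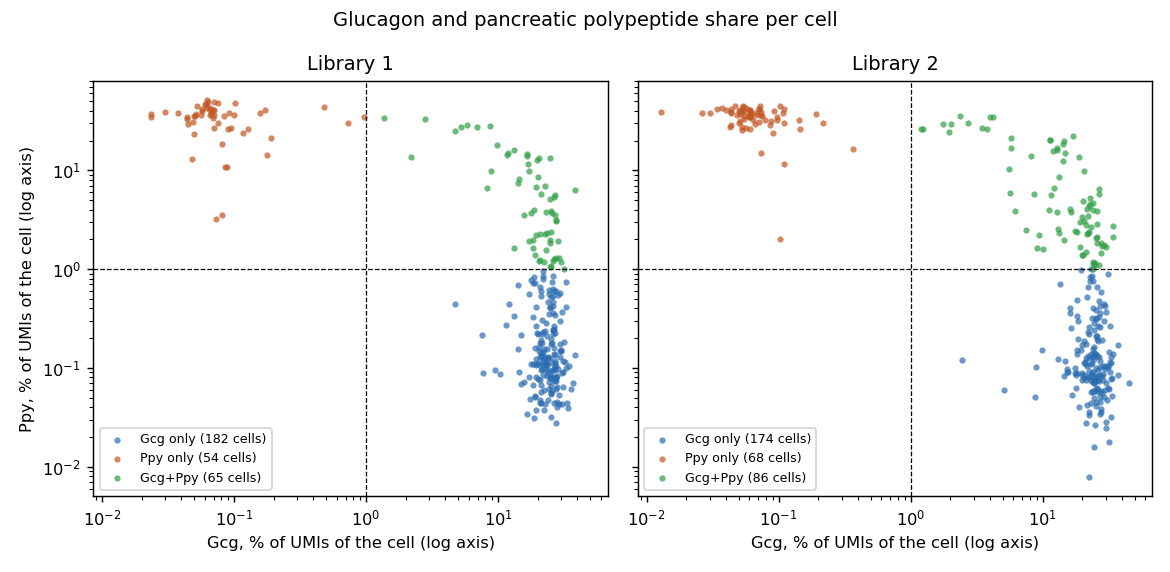
Share of UMIs from Gcg (x axis, percent, log scale) and Ppy (y axis, percent, log scale) in each Gcg+Ppy, Gcg-only and Ppy-only cell, 1 panel a library, with lines at the 1% thresholds. The Gcg+Ppy cells run from the Ppy threshold up to 34.3% and 35.6% Ppy, and few Ppy-only cells lie just under the Gcg threshold. Their median Gcg share is 24.6% at 1 to 2% Ppy and 3.90% above 20% Ppy.

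The 2 hormones were not equally graded around the threshold. Ppy in the Gcg cells formed a slope: 275 cells had under 0.25% Ppy, 45 had 0.25 to 0.5%, 36 had 0.5 to 1%, 39 had 1 to 2%, 46 had 2 to 5%, and 22 each had 5 to 10%, 10 to 20% and over 20%. Gcg in the Ppy cells left a gap: 118 cells had under 0.25% Gcg, 2 had 0.25 to 0.5%, 2 had 0.5 to 1%, 5 had 1 to 2%, 10 had 2 to 5%, 17 had 5 to 10%, 48 had 10 to 20% and 71 had over 20%. The cells nearest the Ppy threshold had 1.00, 1.00 and 1.04% inside it and 0.992, 0.991 and 0.957% outside, whereas those nearest the Gcg threshold had 1.19, 1.25 and 1.38% inside and 0.968, 0.730 and 0.479% outside. The border with Gcg-only cells is thus a line drawn through a continuum and the border with Ppy-only cells falls where cells are sparse. With thresholds of 0.5, 2 and 5% the rule selected 180, 108 and 51 cells.

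Glucagon led in most Gcg+Ppy cells. Gcg had more UMIs than Ppy in 113 of them (52 and 61 by library), called Gcg-rich, and Ppy had more in 38 (13 and 25), called Ppy-rich. In 33 cells the hormones lay within 2-fold of each other, and 20 cells had at least 10% of both. Gcg-rich cells had medians of 22.7 and 21.6% Gcg with 3.09 and 2.55% Ppy, and Ppy-rich cells had 6.98 and 5.63% Gcg with 25.2 and 21.2% Ppy. Insulin and somatostatin, which the rule held down, had medians of 0.179 and 0.162% and of 0.0141 and 0.0123%.

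Free hormone RNA and barcodes with more than 1 cell both bear on a class defined by 2 hormones, so their values are given before any gene is compared. Cells that met no hormone threshold had medians of 0.0915 and 0.0749% Gcg and of 0.0686 and 0.0623% Ppy, and Gcg-only cells had 0.120 and 0.102% Ppy; the rule itself kept these cells under 1%. Cells chosen by markers of other types are free of that limit. Among cells with UMIs of at least 3 of 8 endothelial genes, 6 of 45 in library 1 (13.3%) and 2 of 42 in library 2 (4.76%) reached 1% Gcg, with highest values of 28.4 and 25.9%, and as many reached 1% Ppy, with highest values of 32.9 and 34.5%. In these cells 3 of 45 in library 1 (6.67%, exact 95% interval 1.40 to 18.3%) and 0 of 42 in library 2 (up to 8.41%) carried both hormones at the threshold. Leukocytes were taken as cells with UMIs of at least 3 of Ptprc, Cd74, Cd79a, Ms4a1, Cd3e, Trac and Coro1a. Of these, 0 of 45 and 1 of 41 (2.44%) reached 1% Gcg. For Ppy, 1 of 45 (2.22%) and 4 of 41 (9.76%) reached 1%, up to 38.5%. Both hormones were reached by 0 of 45 (up to 7.87%) and 1 of 41 (2.44%). Some barcodes thus held markers of another cell type together with hormone RNA at the level of a hormone cell. The doublet caller Scrublet marked 2 of the 151 Gcg+Ppy cells (1.32%), 0 Gcg-only cells, 0 Ppy-only cells and 16 of all 1483 cells (1.08%). Of the 2 marked Gcg+Ppy cells, 1 was Gcg-rich (0.885% of 113) and 1 Ppy-rich (2.63% of 38). The marked cells were kept. Median scores were 0.0484 in Gcg+Ppy, 0.0656 in Ppy-rich, 0.0440 in Gcg-only, 0.0196 in Ppy-only and 0.0656 in no-hormone cells. In the study's mixture of human and mouse cells, the reported share of barcodes with both species was higher than the share marked here. An equal share was implied there for pairs within a species, which the mixture cannot show.

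The depth of the Gcg+Ppy cells lay between that of the other classes or near the lower one. Their median was 20505 and 20032 UMIs, against 16413.5 and 19534 in Gcg-only cells and 28784.5 and 30339.5 in Ppy-only cells. Without the 5 genes of the rule the medians were 15019 and 14557 UMIs, against 12693 and 14559.5 in Gcg-only cells and 18605 and 20180 in Ppy-only cells. When every cell was thinned to 3000 of these UMIs, Gcg+Ppy cells showed medians of 1821 and 1826 genes, Gcg-only cells 1826 and 1821, and Ppy-only cells 1839 and 1858.5; the unthinned medians were 4875 and 4779, 4462 and 4818, and 5724 and 5881.5 genes. At equal depth the Gcg+Ppy and Gcg-only medians changed order between the libraries. The part that paired or mixed cells play in the results below was not tested beyond these values and those given beside each result.

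With the 5 genes of the rule left out, the Gcg+Ppy cells lay nearer to Gcg-only than to Ppy-only cells. Each cell was placed on the line between the mean profiles of Gcg-only cells (0) and Ppy-only cells (1) in the other library, over 1000 variable genes without the 5 genes of the rule. The median was 0.222 in library 1 and 0.244 in library 2 (0.233 ± 0.0156, SD, n = 2 libraries), against 0.0315 and 0.00160 for Gcg-only and 0.987 and 1.00 for Ppy-only cells. Of the 151 cells, 81 lay under 0.25, 65 between 0.25 and 0.75, and 5 above 0.75; in the middle band there were 11 of 356 Gcg-only and 9 of 122 Ppy-only cells. The middle band was thus filled mainly by Gcg+Ppy cells.

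**Figure D2:**
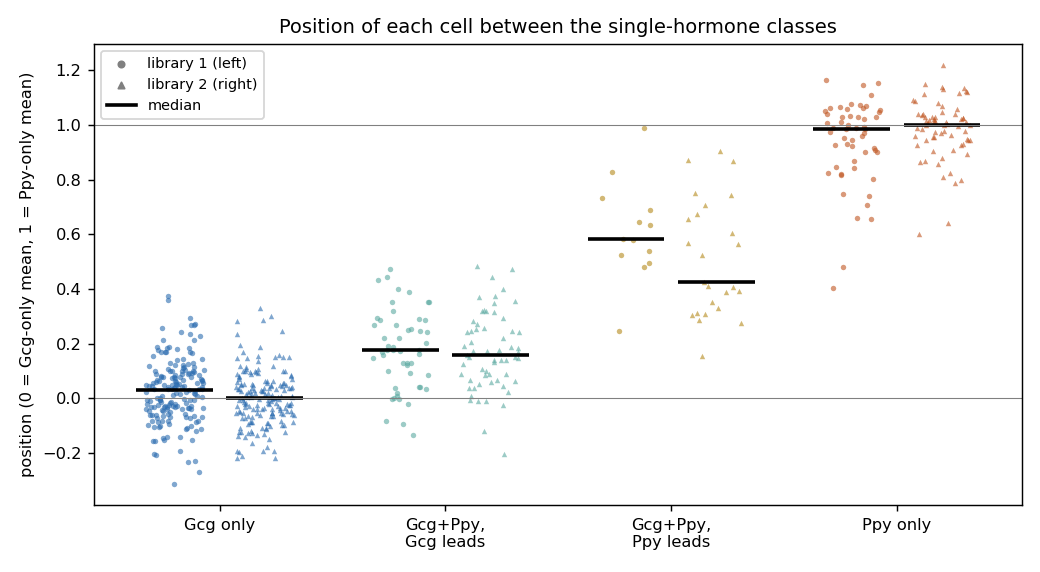
Position of each cell on the line from the Gcg-only mean (0) to the Ppy-only mean (1) of the other library (y axis, no unit), by class and library, with a bar at each median. Gcg-rich cells overlap the upper part of the Gcg-only cells (medians 0.175 and 0.160), and Ppy-rich cells spread over the middle (0.582 and 0.424).

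The position followed the balance of the 2 hormones. Gcg-rich cells had medians of 0.175 and 0.160 with highest values of 0.475 and 0.485, and Ppy-rich cells had medians of 0.582 and 0.424 with lowest values of 0.246 and 0.153, so the divisions overlapped but their medians stood in the same order in both libraries. Grouped by Ppy level, the median was 0.0893 in the 39 cells with 1 to 2% Ppy, 0.171 in the 46 with 2 to 5%, 0.279 in the 22 with 5 to 10%, 0.389 in the 22 with 10 to 20% and 0.666 in the 22 above 20%. Across cells, Pearson's r between log2(Ppy/Gcg) and position was 0.876 in library 1 (65 cells) and 0.870 in library 2 (86 cells), and Spearman's rho was 0.793 and 0.830. These are descriptions over cells that share a library and a preparation and differ in depth.

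**Figure D3:**
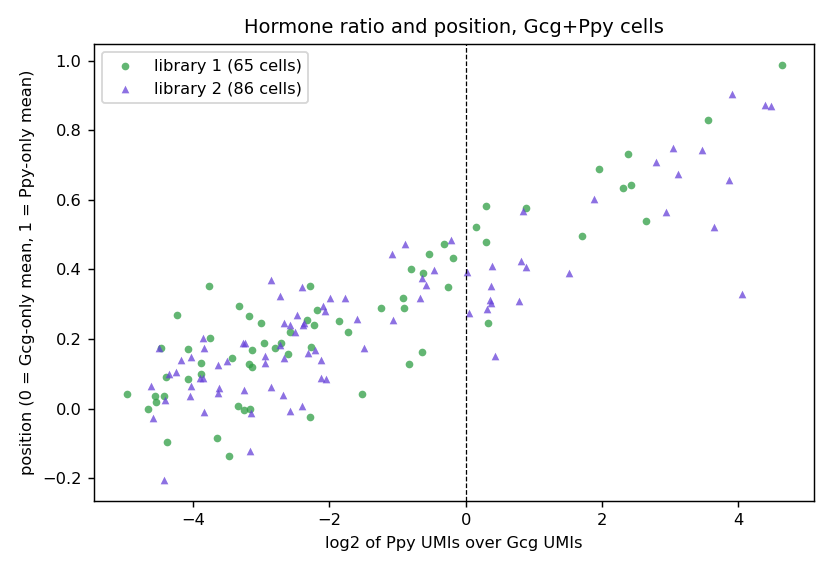
Position from Gcg-only (0) to Ppy-only (1) of each Gcg+Ppy cell (y axis, no unit) against the log2 ratio of its Ppy to Gcg UMIs (x axis), with circles for library 1 and triangles for library 2. The points rise from left to right, with r of 0.876 and 0.870.

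For gene tests, UMIs were summed over the cells of each class in each library, the 5 genes of the rule were left out, and levels are given as CPM, the remaining UMIs of each sum scaled to 1000000. A sum cannot tell more cells with a gene from more RNA per cell. Against Gcg-only cells, 150 of 12237 genes differed at an edgeR adjusted p under 0.05, with 89 higher (0.727% of genes tested) and 61 lower (0.498%) in Gcg+Ppy cells, and 68 of them differed by more than 2-fold. Against Ppy-only cells 1314 genes differed, with 715 higher (5.84%) and 599 lower (4.89%), and 539 by more than 2-fold. The first count rests on the Gcg-only sums: it was 93 without that of library 1 and 47 without that of library 2, and it was 31 when each sum held 54 cells. The second was 755 without the Ppy-only sum of library 2.

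The gamma cell genes Tspan8 and Pyy stood between the single-hormone classes. Neither is a gene of the rule, but the list that holds them was chosen with earlier results of these data known. Tspan8, a tetraspanin of the cell membrane (chromosome 10, 115816832 to 115849893), was at 19.0 and 16.6 CPM in Gcg-only cells of libraries 1 and 2, 134 and 156 in Gcg+Ppy cells and 748 and 702 in Ppy-only cells. It was higher than in Gcg-only cells (log2 fold change 3.03 ± 0.16 (SE), edgeR adjusted p = 4.70e-16) and lower than in Ppy-only cells (log2 fold change -2.30 ± 0.11 (SE), edgeR adjusted p = 2.71e-18), with no overlap between classes. Its exons overlap the antisense gene 4930422I22Rik, and so do, with a gene on the other strand, the exons of Mdga2, St8sia6, Cabp7, Slc7a2, Wnk3, Egflam, Lama2, Gk, Slc16a9, Id4, Neurod1, Jun, Hspa1a, Ddit3, Sox4, Cd81, Pcsk2, Pcsk1n, Dpp4, Cd3e and Cftr, named below. The strand setting of the counting is not given in the sources used here, so reads of such pairs cannot be told apart. Pyy, the peptide YY gene beside Ppy, was at 6282 and 5981, 28943 and 24341 and 53889 and 41295 CPM in the same order, with log2 fold changes of 2.12 against Gcg-only cells (edgeR adjusted p = 1.44e-17) and -0.83 against Ppy-only cells (edgeR adjusted p = 3.06e-08). Both calls on each gene held under every alternative that was run.

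Of the 8 gamma cell genes tested, 3 were higher in Gcg+Ppy than in Gcg-only cells (Tspan8, Pyy and Etv1) and 0 lower, with a list median of 0.07 beside 0.000689 over all genes. The transcription factor Etv1 moved least of the 3, at 590.0 and 564 CPM in Gcg-only and 707 and 751 in Gcg+Ppy cells (log2 fold change 0.33 ± 0.08 (SE), edgeR adjusted p = 0.0359), and lost its call under 5 of 16 alternatives. Against Ppy-only cells 3 were lower (Tspan8, Pyy and the semaphorin Sema3e) and 3 higher (Fxyd6, Id4 and Thsd7a), so the list did not move one way; Fxyd6 lost its call under 4 of 16 alternatives, among them without the Gcg+Ppy sum of library 1 and without the Ppy-only sum of library 2, and Id4 under 7, the library as a block among them (adjusted p = 0.0691). The summed level of the list was 7555 and 7254 CPM in Gcg-only, 30460 and 25962 in Gcg+Ppy and 56056 and 43485 in Ppy-only cells, most of it Pyy. Aqp3 was at 0 in both Gcg+Ppy and Ppy-only cells.

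Several alpha cell genes were lower than in Gcg-only cells, and most were higher than in Ppy-only cells. Ttr, which encodes the thyroid hormone carrier transthyretin and is abundant in alpha cells, was at 43701 and 45273 CPM in Gcg-only, 22265 and 21774 in Gcg+Ppy and 2002 and 1713 in Ppy-only cells (log2 fold change -1.02 ± 0.08 (SE), edgeR adjusted p = 3.03e-11 against Gcg-only cells). It thus stood below Gcg-only cells and well above Ppy-only cells, without overlap, and both calls held in every alternative. The homeobox gene Irx1 was at 319 and 290.1, 202 and 196 and 1.72 and 4.10 CPM. Its difference from Gcg-only cells (log2 fold change -0.62 ± 0.11 (SE), edgeR adjusted p = 9.58e-04) was not called with 54 cells in each sum (adjusted p = 0.135) or without the Gcg-only sum of library 1 (adjusted p = 0.0670), while that from Ppy-only cells (log2 fold change 5.97 ± 0.25 (SE), edgeR adjusted p = 2.63e-19) held throughout.

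Of the 14 alpha cell genes tested, 0 were higher and 5 lower in Gcg+Ppy than in Gcg-only cells, among them Ttr, Irx1 and the amino acid transporters Slc7a2 and Slc38a5. The list median was -0.29 beside 0.000689 over all genes. Slc7a2, which carries cationic amino acids, was at 1392 and 1394 CPM in Gcg-only and 929 and 1028 in Gcg+Ppy cells, and Slc38a5, which carries neutral ones, was at 117 and 104 and 28.7 and 50.8. Against Ppy-only cells 9 of 14 were higher and 1 lower, with a list median of 2.18 beside 0.00100 over all genes. The one lower gene was Tm4sf4, at 263 and 276 CPM in Gcg+Ppy and 384 and 365 in Ppy-only cells. The kinase gene Wnk3 was at 422 and 459, 481 and 421 and 49.8 and 57.5 CPM in Gcg-only, Gcg+Ppy and Ppy-only cells. Ldb2 was at 0 in both Gcg+Ppy and Ppy-only cells.

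**Figure D4:**
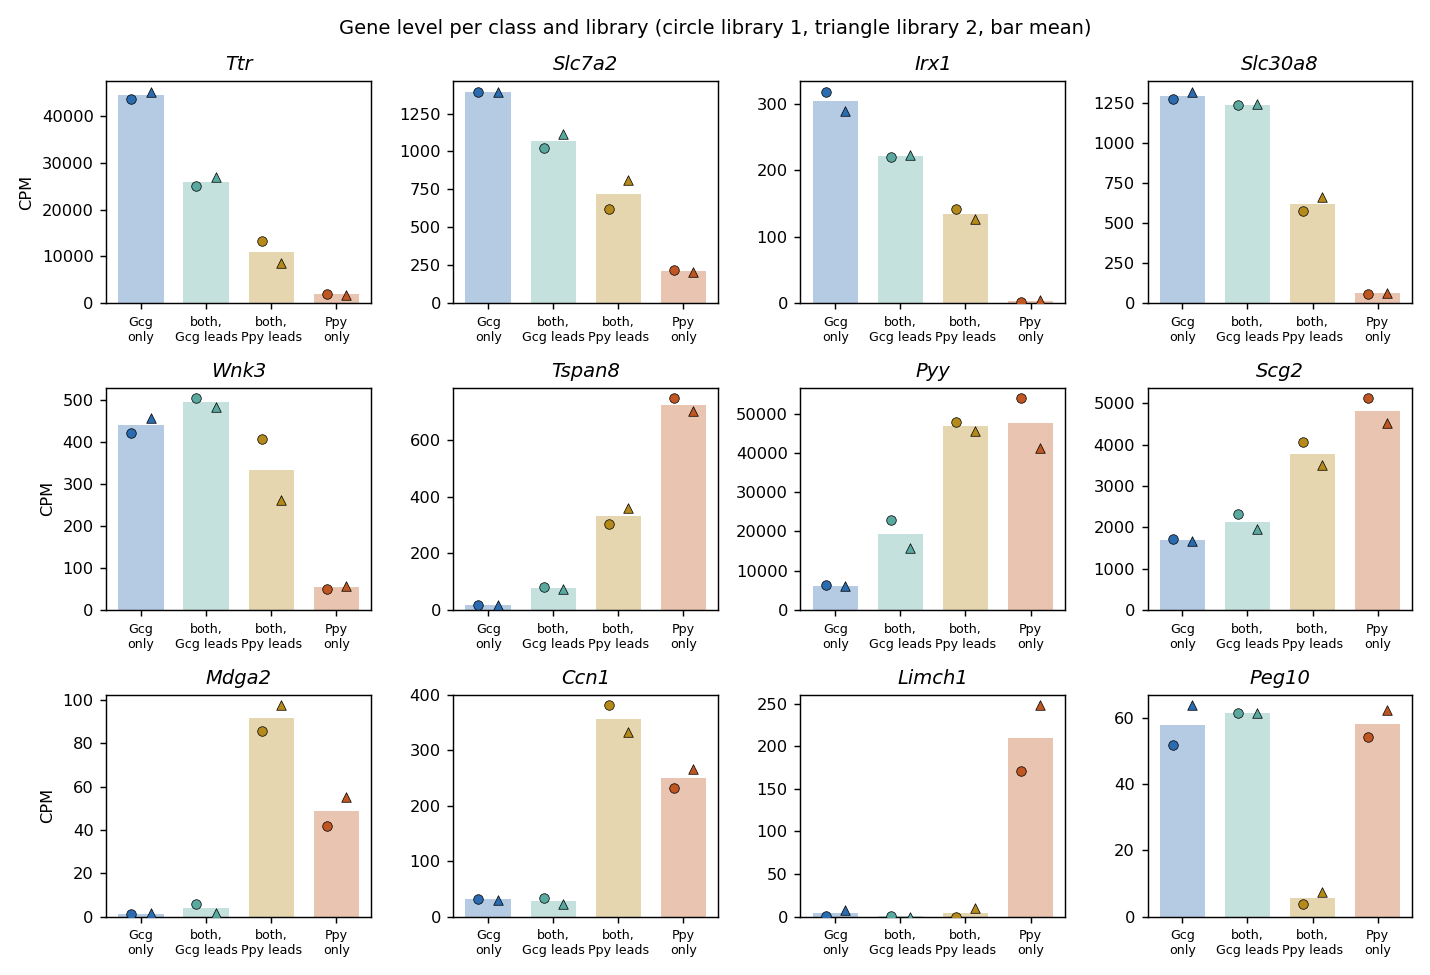
Level of selected genes (y axis, CPM of UMIs without the genes of the rule, linear from 0) in Gcg-only, Gcg-rich, Ppy-rich and Ppy-only cells, with 1 point a library and a bar at their mean. Ttr falls and Tspan8 rises along the 4 classes, Limch1 is high in Ppy-only cells, and Peg10 is low in Ppy-rich cells.

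Outside these lists, the genes that rose most over Gcg-only cells were led by Mdga2 and St8sia6. Mdga2, a synaptic adhesion protein (chromosome 12, 66466060 to 67222549), was at 1.14 and 1.77 CPM in Gcg-only and 25.1 and 29.2 in Gcg+Ppy cells (log2 fold change 4.15 ± 0.42 (SE), edgeR adjusted p = 4.33e-08), and the sialyltransferase gene St8sia6 was at 0.762 and 3.19 and 25.1 and 21.6 CPM (log2 fold change 3.47 ± 0.42 (SE), edgeR adjusted p = 1.81e-06). Both were near 0 in Gcg-only cells. Ccn1, a secreted matrix protein, was at 32.4 and 30.8 and 117 and 111 CPM (log2 fold change 1.84 ± 0.16 (SE), edgeR adjusted p = 5.22e-10), and Depp1 at 30.5 and 31.2 and 113 and 84.2 CPM (log2 fold change 1.65 ± 0.17 (SE), edgeR adjusted p = 4.37e-08). These 4 calls held in every alternative that gave an adjusted p, 16 for Ccn1 and Depp1 and 15 for Mdga2 and St8sia6. Lrrtm1, Cabp7 and Speg completed the genes named by the rule, with log2 fold changes of 2.00, 1.93 and 1.78, and were not called with 54 cells in each sum.

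The genes named for a fall against Gcg-only cells, taken by fold from called genes that averaged 20 CPM or more and had no more than 50% of their Gcg-only UMIs in 3 cells, were Camk1d, Pdzrn4, Nrcam, Slc38a5, Specc1, 3110080O07Rik, Nrp1 and Olfm1, with log2 fold changes from -1.66 to -1.13. Each of the 8 lost its call at least once: Pdzrn4 and 3110080O07Rik each lost theirs under 8 of 15 alternatives, the library as a block among them (adjusted p = 0.0620 and 0.0533), Camk1d under 5, Nrp1 under 4 and Specc1 under 2. The losses of Pdzrn4 and 3110080O07Rik came with any 1 of the 4 sums left out, those of Camk1d without either sum of library 2, that of Nrp1 without the Gcg+Ppy sum of library 1 or the Gcg-only sum of library 2, and that of Specc1 without the Gcg-only sum of library 1, among others. Nrp1, a co-receptor that endothelial cells also carry, had a log2 fold change of -0.41 (adjusted p = 0.761) once cells with 3 or more endothelial or leukocyte genes were left out. Slc38a5 was not called with 54 cells in each sum (adjusted p = 0.0630). Nrcam, a neuronal adhesion protein, was at 43.0 and 37.2 CPM in Gcg-only and 11.6 and 16.7 in Gcg+Ppy cells (edgeR adjusted p = 0.00261), and Olfm1, a secreted olfactomedin, at 76.2 and 107 and 34.9 and 48.0 (edgeR adjusted p = 9.69e-04). Nrcam lost its call without the Gcg-only sum of library 1 (adjusted p = 0.0604) and Olfm1 without that of library 2 (adjusted p = 0.137).

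Against Ppy-only cells the differences were larger, and several genes were all but absent from one side. Hhatl had 60 and 76 UMIs in Gcg+Ppy cells of libraries 1 and 2 and 0 in Ppy-only cells, which makes it at least 50.9-fold higher when 3 UMIs are allowed over the Ppy-only sums. Egflam, a matrix protein of synapses, was at least 44.2-fold higher on the same floor, and the fatty acid translocase Cd36 at least 23.6-fold. Col27a1, a fibrillar collagen gene, was at 72.6 and 105 CPM in Gcg+Ppy and 1.72 and 2.35 in Ppy-only cells (log2 fold change 5.39 ± 0.35 (SE), edgeR adjusted p = 4.91e-14). All of them were also present in Gcg-only cells, at 82.3 and 66.9 CPM for Hhatl, 60.6 and 69.4 for Egflam, 7.24 and 7.08 for Cd36 and 132 and 132 for Col27a1. Cd36 was called higher than in Gcg-only cells too, but lost that call under 7 of 15 alternatives. Among them were the library as a block (edgeR adjusted p = 0.0568) and leaving out the Gcg+Ppy sum of library 2 (log2 fold change 0.91). With Irx1, Pcp4l1 (71.9-fold, 95% counting interval 19.5 to 600.1), Lama2 (77.5-fold, 13.5 to 3106) and Gm9790 (65.7-fold, 17.8 to 549) completed the list, the last 3 resting on 1 or 2 UMIs in Ppy-only cells.

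In the other direction the named genes were led by Limch1, an actin-binding protein (chromosome 5, 66745827 to 67057158). It was at 171 and 248 CPM in Ppy-only cells, 0.896 and 2.78 in Gcg+Ppy cells and 1.14 and 7.79 in Gcg-only cells (log2 fold change -6.70 ± 0.39 (SE), edgeR adjusted p = 2.89e-15). In UMIs, Ppy-only cells held 199 and 423 and Gcg+Ppy cells 1 and 4, all of the latter in at most 3 cells. Pcsk1, the convertase that makes GLP-1, was at 55.0 and 67.4 CPM in Ppy-only cells, 5.38 and 1.39 in Gcg+Ppy cells and 4.19 and 2.48 in Gcg-only cells (log2 fold change -4.25 ± 0.41 (SE), edgeR adjusted p = 1.21e-09). The muscarinic receptor gene Chrm3 and the calcium-binding S100a16 were likewise low in Gcg+Ppy cells, with log2 fold changes of -2.84 and -3.97, as were Nhs (-4.24) and the glycerol kinase gene Gk (-3.27). Hpgd, which inactivates prostaglandins, was 18.7-fold and Vsig1 17.8-fold higher in Ppy-only cells, on few UMIs in Gcg+Ppy cells. Limch1 and Pcsk1 thus stood in Gcg+Ppy cells near their Gcg-only level, unlike Tspan8 and Pyy.

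To describe this contrast between genes, the 15 genes per side that best separated Gcg-only from Ppy-only cells at 100 CPM or more were taken, a choice made after the data were seen. The 15 genes of Gcg-only cells stood in Gcg+Ppy cells at a median of 73.8% of their Gcg-only level (range 35.9 to 104%). The 15 genes of Ppy-only cells stood at a median of 29.6% of their Ppy-only level (0.878 to 56.0%), with Limch1 the lowest and the only one under 10%. Gcg-rich cells held 84.8% and 21.5% of the 2 sets, and Ppy-rich cells 43.6% and 44.0%. These are descriptions with no test.

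**Figure D5:**
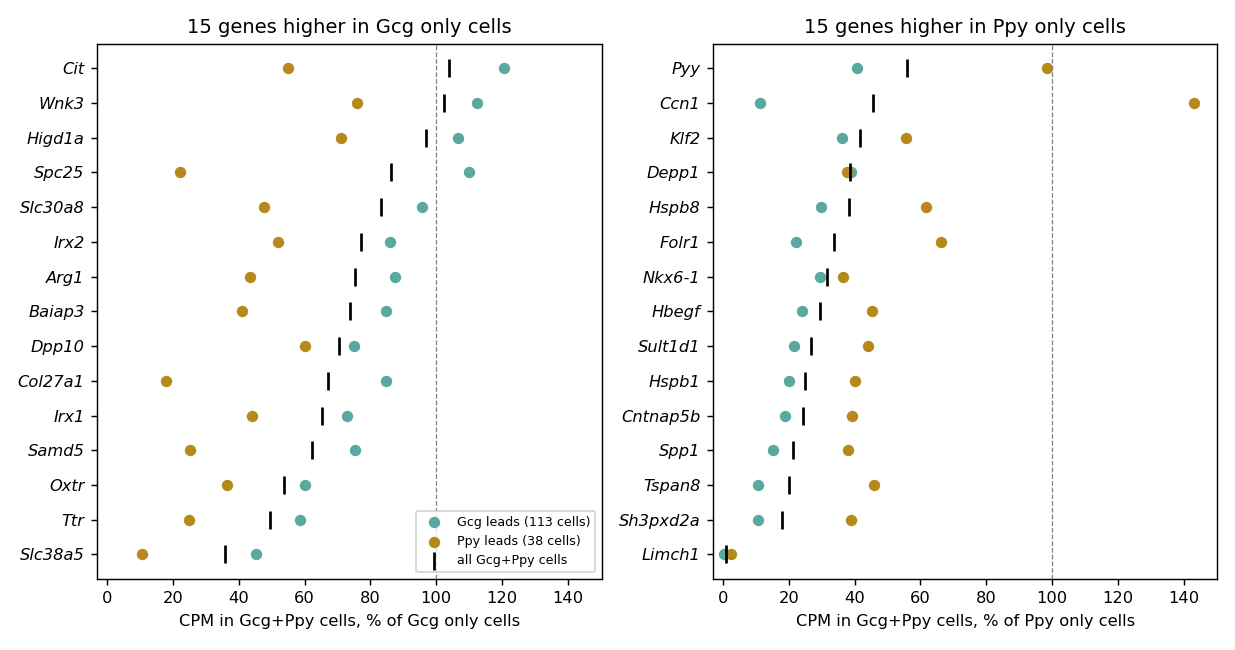
Level of the 15 genes that mark Gcg-only cells and the 15 that mark Ppy-only cells, in Gcg-rich and Ppy-rich Gcg+Ppy cells, as a percentage (x axis) of the level in the class they mark, with a black tick for all Gcg+Ppy cells. Medians are 84.8% and 43.6% for the first set and 21.5% and 44.0% for the second, in which Ccn1 in Ppy-rich cells reaches 143%.

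Calls in the other islet gene lists stand beside 1.23% of all genes tested against Gcg-only cells and 10.7% against Ppy-only cells. Of the 19 endocrine transcription factors tested, 2 were higher (Etv1 and Nkx6-1) and 3 lower (Isl1 and Irx1 among them), with a list median of 0.09; Isl1 lost its call under 7 of 16 alternatives. Nkx6-1, best known from beta cells, was at 83.4 and 65.2 CPM in Gcg-only, 131 and 122 in Gcg+Ppy and 386 and 418 in Ppy-only cells, and its call against Gcg-only cells was lost with 54 cells in each sum and without the Gcg-only sum of library 2 (adjusted p = 0.119 in both). The pan-endocrine factor Pax6 was at 446 and 464, 480.3 and 534 and 468 and 444 CPM and passed neither test. Against Ppy-only cells 5 factors were higher (Neurod1, Irx1, Irx2 and Rfx6 among them) and 2 lower (Pdx1 and Nkx6-1); Neurod1 lost its call under 2 of 16 alternatives, among them without the Gcg+Ppy sum of library 2.

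Members of the beta cell list went both ways. Of its 5 tested genes, Iapp and Nkx6-1 were higher than in Gcg-only cells, and G6pc2 and Slc30a8 were higher and Iapp, Pdx1 and Nkx6-1 lower than in Ppy-only cells. Against Ppy-only cells Iapp was not called by DESeq2 (adjusted p = 0.187), Pdx1 lost its call under 3 of 16 alternatives, among them without the Ppy-only sum of library 1, and G6pc2 under 2, among them without that of library 2. Slc30a8, the zinc transporter of secretory granules, was at 1270.3 and 1319 CPM in Gcg-only, 1076 and 1077 in Gcg+Ppy and 55.9 and 64.5 in Ppy-only cells (log2 fold change 4.16 ± 0.11 (SE), edgeR adjusted p = 3.30e-25 against Ppy-only cells). Iapp, the amylin gene, was at 633 and 489, 817 and 1266 and 4189.6 and 1586 CPM, and its call against Gcg-only cells was lost under 5 of 16 alternatives. Of the delta and epsilon list 2 genes were tested, and Rbp4, the retinol carrier, was lower than in Gcg-only cells (-0.69 on the log2 scale) and higher than in Ppy-only cells (1.14).

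Genes of prohormone processing and of the secretory granule were called more often against Ppy-only than against Gcg-only cells. The same held over all genes tested, at 10.7% and 1.23%. Of 13 tested, 1 was higher and 0 lower than in Gcg-only cells: Scg2, a granule protein, at 1706 and 1665 CPM in Gcg-only, 2738 and 2396 in Gcg+Ppy and 5121 and 4522 in Ppy-only cells (log2 fold change 0.60 ± 0.08 (SE), edgeR adjusted p = 2.63e-05). Against Ppy-only cells 6 were higher (Pcsk2, Pcsk1n, Cpe, Chga, Scg3 and Vgf) and 2 lower (Pcsk1 and Scg2). Chga was not called by DESeq2 (adjusted p = 0.382), and Cpe lost its call under 3 of 16 alternatives, among them without the Gcg+Ppy sum of library 1 and without the Ppy-only sum of library 2. Pcsk2, which cuts proglucagon to glucagon, was at 10033 and 9263 CPM in Gcg+Ppy and 6870.2 and 6677 in Ppy-only cells.

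Of 9 receptor genes tested, the lowest edgeR adjusted p against Gcg-only cells was 0.134, for the fatty acid receptor Ffar1. Against Ppy-only cells the somatostatin receptor Sstr2, the vasopressin receptor Avpr1b and the lipid receptors Ffar1 and Gpr119 were higher, and Glp1r was lower; Avpr1b alone held in every alternative, while Sstr2, Ffar1 and Gpr119 lost their calls under 3, 4 and 6 of 16 and Glp1r under 4 of 15, among them, for each, without a Gcg+Ppy sum (library 2 for Sstr2, library 1 for Ffar1 and Glp1r, either for Gpr119) and without a Ppy-only sum (library 2 for Ffar1, library 1 for the others). Avpr1b was at 69.7 and 82.9 CPM in Gcg-only, 85.1 and 109.9 in Gcg+Ppy and 30.9 and 27.6 in Ppy-only cells. Of 3 progenitor genes tested, Sox4 was lower than in Gcg-only cells and Cd81 lower than in Ppy-only cells. Sox4 lost its call under 2 of 16 alternatives, leaving out the Gcg-only sum of library 1 among them. Cd81 lost its call under 10 of 16, among them DESeq2 (adjusted p = 0.232) and the library as a block (edgeR adjusted p = 0.0540). The proliferation genes tested, Pcna and Cenpf, had edgeR adjusted p of 0.463 and 0.951 against Gcg-only cells and were higher than in Ppy-only cells, with calls lost under 5 of 16 and 2 of 13 alternatives. Mki67, a marker of dividing cells, was at 0 and 29.9 CPM, with all of its UMIs in at most 3 cells of library 2, and was not tested.

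Of the early response genes, which can rise soon after cells are handled, Fosb and Egr1 stood between the classes. Of 10 tested, Fosb, Egr1 and the chaperone Hspa5 were higher than in Gcg-only cells; Fos, Fosb, Jun, Egr1, Hspa1a and Hspa1b were lower than in Ppy-only cells and Ddit3 was higher; Hspa1a and Hspa1b lost these calls under 1 and 4 of 16 alternatives, for Hspa1b among them without the Gcg+Ppy or the Ppy-only sum of library 2. Fosb, Egr1 and Hspa5 lost their calls against Gcg-only cells under 4, 2 and 5 of 16 alternatives. Fos was at 2604 and 2278 CPM in Gcg-only, 2885 and 2645 in Gcg+Ppy and 4138 and 3917 in Ppy-only cells. The mitochondrial share had medians of 0.574 and 0.582% in Gcg-only, 0.609 and 0.657% in Gcg+Ppy and 0.770 and 0.756% in Ppy-only cells, and so moved in the same order as these genes, Tspan8 and Pyy. Its part in those results was not tested.

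RNA of other cell types was measured by marker lists, and the endothelial list in Gcg-only cells and the leukocyte list in Gcg+Ppy and Ppy-only cells differed most between libraries. The 8 endothelial genes summed to 52.9 and 32.0 CPM in Gcg+Ppy cells, 66.3 and 243 in Gcg-only and 41.3 and 52.8 in Ppy-only cells. Plvap, Flt1 and Kdr were called lower than in Gcg-only cells, with log2 fold changes of -2.58, -3.42 and -3.52 and over 50% of their Gcg-only UMIs in 3 cells, and were not without the Gcg-only sum of library 2 (adjusted p = 0.403 for Flt1, 0.733 for Kdr and 0.885 for Plvap). The 9 leukocyte genes summed to 61.8 and 153 CPM in Gcg+Ppy, 58.3 and 58.1 in Gcg-only and 107 and 317 in Ppy-only cells. Cd3e was at 0 in Gcg+Ppy and in Ppy-only cells. Cd74 was called higher than in Gcg-only cells, with 85.7% of its Gcg+Ppy UMIs in 3 cells, and lay on the other side without the Gcg+Ppy sum of library 2. The 10 acinar and ductal genes summed to 332 and 298, 237 and 245, and 616 and 551 CPM in Gcg+Ppy, Gcg-only and Ppy-only cells, with Cftr at 0 in Gcg+Ppy cells; Spp1 was called higher than in Gcg-only and lower than in Ppy-only cells. The 8 stellate and Schwann genes summed to 163 and 102, 91.8 and 77.6, and 95.4 and 78.0 CPM in the same order, with Sox10 and Cdh19 at 0 throughout. Rgs5 and Col1a2 were called higher than in Gcg-only cells, Col1a2 in 10 of 15 alternatives. Rgs5 lost its call without the Gcg+Ppy sum of library 1 (log2 fold change 0.80). With cells holding 3 or more endothelial or leukocyte genes left out, 161 genes differed from Gcg-only cells.

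Dividing the Gcg+Ppy cells by the leading hormone showed how far they vary among themselves. Between Gcg-rich and Ppy-rich cells 112 of 11555 genes differed, 60 higher (0.519%) and 52 lower (0.45%) in Gcg-rich cells, and 69 by more than 2-fold; without the Gcg-rich sum of library 2 the count was 70. Of the alpha cell genes, Ttr was at 25062 and 26992 CPM in Gcg-rich and 13404 and 8676 in Ppy-rich cells (log2 fold change 1.23 ± 0.13 (SE), edgeR adjusted p = 1.10e-07), and Slc30a8 of the beta cell list moved with it, at 1234 and 1243 and 575 and 659 (log2 fold change 0.98 ± 0.11 (SE), edgeR adjusted p = 1.29e-06). Of 14 alpha cell genes tested 7 were higher in Gcg-rich cells and 2 lower, Dpp4 among them; of the 7, Irx1, Irx2, Wnk3 and Slc38a5 lost their calls under 10, 7, 8 and 7 of 12 alternatives. Tspan8, Pyy and Meis2, 3 of the 8 gamma cell genes, were lower in Gcg-rich cells, though Meis2 lost its call under 11 of 12 alternatives.

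The widest gaps between the divisions were in genes that were near their Gcg-only level in Gcg-rich cells and high in Ppy-rich cells, or the reverse. Mdga2 was at 5.89 and 1.95 CPM in Gcg-rich and 85.9 and 97.7 in Ppy-rich cells (log2 fold change -4.61 ± 0.47 (SE), edgeR adjusted p = 1.03e-07). Ccn1 was at 34.2 and 22.4 and 381 and 332 CPM (log2 fold change -3.67 ± 0.22 (SE), edgeR adjusted p = 3.98e-13). The rise of these genes in Gcg+Ppy cells as a whole thus lay mostly in the Ppy-rich cells. For Ccn1 a few cells carried much of that level: 3 cells held 52.1% of its UMIs in Ppy-rich cells, against 33.3% for Mdga2. The transcription factor gene Sim1 was 16.0-fold higher in Gcg-rich cells (95% counting interval 5.36 to 78.6, on 3 UMIs in Ppy-rich cells) and the carboxylate transporter gene Slc16a9 at least 4.57-fold.

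Gcg-rich cells differed from Gcg-only cells at few genes, in a comparison added after the data were seen: 17 of 11555 genes were called, 12 higher (0.104%) and 5 lower (0.0433%). The count ran from 5 to 61 as single sums were left out, being 5 without the Gcg-only sum of library 2, 7 and 49 without the Gcg-rich sums of libraries 2 and 1, and 57 and 61 without the Ppy-rich sums of libraries 1 and 2. Tspan8 was at 81.3 and 74.9 CPM in Gcg-rich cells, above both Gcg-only sums (log2 fold change 2.12 ± 0.20 (SE), edgeR adjusted p = 5.88e-08), Pyy was at 22931 and 15855 CPM (log2 fold change 1.66 ± 0.13 (SE), edgeR adjusted p = 4.77e-10) and Depp1 at 113 and 85.6 CPM (log2 fold change 1.67 ± 0.19 (SE), edgeR adjusted p = 2.35e-06). Ttr was lower than in Gcg-only cells (log2 fold change -0.78 ± 0.12 (SE), edgeR adjusted p = 0.00156). These 4 calls held in every alternative. Even cells in which glucagon led thus held more Tspan8 and Pyy than Gcg-only cells, while Mdga2 and Ccn1 did not pass the test there (edgeR adjusted p = 0.863 and 0.971).

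Ppy-rich cells differed from Ppy-only cells at 258 genes, 182 higher (1.58%) and 76 lower (0.658%), in the second comparison added after the data were seen; the count was 145 without the Ppy-rich sum of library 2, and 148 and 109 without the Ppy-only sums of libraries 1 and 2. Alpha cell genes were higher, 8 of 14 with 0 lower: Irx1 was at 142 and 127 CPM in Ppy-rich and 1.72 and 4.10 in Ppy-only cells (log2 fold change 5.39 ± 0.35 (SE), edgeR adjusted p = 2.33e-12), Wnk3 at 407 and 261 and 49.8 and 57.5 (log2 fold change 2.60 ± 0.19 (SE), edgeR adjusted p = 2.51e-11), and Ttr at 13404 and 8676 and 2002 and 1713 (log2 fold change 2.59 ± 0.13 (SE), edgeR adjusted p = 3.56e-15). Pyy was at 47989.7 and 45645 CPM in Ppy-rich cells, with a log2 difference of -0.00 ± 0.12 (SE) from Ppy-only cells. Limch1 remained low, with 0 and 4 UMIs in Ppy-rich cells and 0 and 9.77 CPM (log2 fold change -5.12 ± 0.53 (SE), edgeR adjusted p = 7.63e-08).

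Peg10, an imprinted gene expressed from the paternal copy (chromosome 6, 4747306 to 4760517), did not run in order from Gcg-only to Ppy-only cells. It was at 51.8 and 63.7 CPM in Gcg-only, 61.3 and 61.3 in Gcg-rich, 3.73 and 7.32 in Ppy-rich and 54.1 and 62.2 in Ppy-only cells. Ppy-rich cells stood below all of the other sums, both against Gcg-rich cells (log2 fold change 3.35 ± 0.51 (SE), edgeR adjusted p = 1.94e-04) and against Ppy-only cells (log2 fold change -3.27 ± 0.51 (SE), edgeR adjusted p = 1.14e-04). The low level rests on 1 and 3 UMIs in 13 and 25 cells, and both calls held in all 12 alternatives. Iapp and the granule gene Chgb were also lower in Ppy-rich cells than in both Gcg-rich and Ppy-only cells, and Dpp4 was higher than in both, with calls that, unlike those of Peg10, were lost under some alternatives (for Chgb with called doublets left out, for Dpp4 without the Ppy-rich sum of library 2, for Iapp against Gcg-rich cells by DESeq2).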

How the data were processed

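The libraries were 3′ UMI libraries of 1 islet preparation. The deposited values are UMI counts per gene and cell, not normalised, which the authors made with the Cytonaut pipeline (UMI-tools for barcodes, reads in exons of GRCm38). The general filters of the study (at least 200 genes and at most 20% mitochondrial UMIs a cell) removed 0 cells. Cells were grouped by the hormone rule, and the members and the gene lists were chosen with earlier results of these data known. Counts were summed per class and library without Gcg, Ppy, Ins1, Ins2 and Sst, and tested with edgeR 4.0.16 (R 4.3.3; TMM, filterByExpr, quasi-likelihood test, Benjamini-Hochberg adjustment over all genes, 2-sided). The fits had 6 sums (3 residual degrees of freedom) and 8 sums (4). With 2 libraries a class, the smallest p an exact permutation test allows is 0.333, so none was run. DESeq2 1.42.0, other thresholds and left-out sums were alternatives. Scrublet was run in scanpy 1.11.5. Code was tested on simulated data. Beside the lists, genes were named by size: up to 8 called genes per direction (5 in the comparisons that divide Gcg+Ppy cells) with a mean of at least 20 CPM and at most 50% of UMIs in 3 cells. A gene at 0 was given 3 UMIs over the summed group. A library number marks a shared library; sums of 1 number deviated together weakly (correlations of 0.0015, 0.0025 and 0.0387 over 12237 genes). Promoter windows are RefSeq's. Some genes are not reported here and were left out of the 15 genes that separate the classes.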

Additional observations from a re-analysis of the deposited data

How the results depend on the processing

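Counts of called genes moved by more than 1.5 times under the following alternatives. DESeq2 called 42 genes against Gcg-only cells, 624 against Ppy-only cells, 72 between Gcg-rich and Ppy-rich cells and 7 between Gcg-rich and Gcg-only cells. With 54 cells in each sum the first 2 counts were 31 and 826, and without a filter on low counts the first was 251. With called doublets removed, an alternative chosen for this comparison after seeing the data, 10 genes separated Gcg-rich from Gcg-only cells. As single sums were left out, in fits where the lone sum is assumed to vary like the others, the counts ran from 47 to 206 against Gcg-only, 755 to 1200 against Ppy-only, 70 to 118 between Gcg-rich and Ppy-rich, 5 to 61 between Gcg-rich and Gcg-only and 109 to 278 between Ppy-rich and Ppy-only cells. The cause was not tested. With the library as a replicate block, the counts in that order were 136, 1247, 124, 23 and 265; of 254 calls on named genes, 7 were lost under this block and 247 kept. Of the single genes named, 1 changed sign: Cd74 against Gcg-only cells, at -0.26 without the Gcg+Ppy sum of library 2 and up to 2.85 without that of library 1.

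The share of Gcg+Ppy cells was 12.1, 7.27 and 3.44% with thresholds of 0.5, 2 and 5%, and 8.84 to 11.5% in single libraries. Their position was 0.178 and 0.281 with thresholds of 0.5 and 2%, and 0.222 to 0.244 in single libraries. Their genes per cell at equal depth differed by 0.000376% from Gcg-only cells (-0.274 to 0.275 in single libraries) and by -1.36% from Ppy-only cells (-1.75 to -0.979), and by 4.22% and -16.8% without thinning. A comparison within 1 library has no residual degrees of freedom and gave no test. With 13 Ppy-rich cells in library 1, genes of few UMIs are the least certain.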
